A study of Canis lupus familiaris with 22 samples.

Results

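The 150 genes described here are those counted far more often in RPE/choroid than in retina of the same dogs while showing no shift of 0.2 or more on the log2 scale, in 1 direction, between macula and periphery in every dog. They were chosen by measured values from 30951 Ensembl gene identifiers. Counts were divided by the library total and multiplied by 1000000 (CPM). For each of 4 dogs, the regional difference was the log2 of macular CPM plus 0.5 over peripheral CPM plus 0.5. Genes whose difference was 0.2 or more in all 4 dogs, or -0.2 or less in all 4 dogs, in either tissue, were dropped, which removed 4568 genes over the whole table. Of the 12853 genes with a mean RPE/choroid level of at least 5 CPM, 9760 remained. The members are the 150 of these with the highest log2 ratio of mean RPE/choroid to mean retina level. Both the tissue contrast and the regional contrasts of the first set of dogs chose the members, so their values in those contrasts are given as a description with no test.

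The retinal pigment epithelium (RPE) is a pigmented cell sheet behind the photoreceptors that takes up shed outer segments, regenerates visual pigment and controls exchange with the blood. The choroid behind it is a layer of vessels, fibroblasts, melanocytes and immune cells that feeds the outer retina. A dissected RPE/choroid sample therefore holds epithelial, vascular, stromal and blood cells together, whereas the neural retina holds photoreceptors, interneurons, ganglion cells and glia. The canine retina has a central area rich in cones, called macular in the labels, and sampling it beside the periphery asks which genes follow that layout. In such bulk samples, fewer cells of a type and less RNA per cell cannot be told apart.

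The first set came from 4 mixed-breed dogs, each sampled at 2 places of 1 eye, macula and periphery, with retina and RPE/choroid made into separate libraries at each place. Dog 18-2 was a male of 2 to 3 years (pitbull mix, left eye), dog 18-6 a male of 3 to 5 years (mastiff mix, left eye), dog 18-7 a female of 3 to 5 years (pitbull mix, right eye) and dog 18-9 a female of 2 to 3 years (boxer mix, right eye). The second set, which had no part in choosing the members, came from 3 other mixed-breed dogs: dog 1, a female of 3 to 5 years (labrador/pitbull mix), dog 2, a male of 2 to 3 years (pitbull mix), and dog 3, a male of 3 to 4 years (pitbull mix). From each of these, macular RPE/choroid was taken from the right eye with the retina left on and from the left eye with the retina peeled away first. Retina on is thus always a right eye and retina off a left eye, and these cannot be told apart. The labels name no treatment or genotype.

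The deposited identifiers carry no gene names, and 0 of the 150 members matched a symbol in the reference table, so members are given by identifier with no statement of function, and the tissue labels could not be checked against known markers of RPE, vessels or photoreceptors. Library totals ran from 2690847 to 7845325 counts. The most abundant identifier held only 0.0933% to 0.153% of a library. A mirror list of 150 retina-specific even genes, chosen by the same rule with the tissues exchanged, summed to 17333 to 19348 CPM in the 8 retina libraries and 134 to 409 CPM in the 8 RPE/choroid libraries of the first set. In the second set it summed to 4492 CPM (retina on) and 779 CPM (retina off) in dog 1, 93.0 and 910 CPM in dog 2, and 320 and 92.5 CPM in dog 3. The retina-on library of dog 1 therefore stands apart, with the most retina signal of all 14 RPE/choroid libraries, while in dog 2 the library labelled retina off held more than the library labelled retina on. Exchanged labels and a difference in dissection cannot be told apart in dog 2, so its retina-on and retina-off values are given by label throughout. Results on the second set are given with and without the libraries concerned where they move.

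In the tissue contrast that chose them, the members together took 1.36% to 1.71% of all counts in RPE/choroid of the first set and 0.0294% to 0.0570% in retina. Their CPM summed to 15579 ± 1694 (SD, n = 4) in macular RPE/choroid and 14831 ± 992 (SD, n = 4) in peripheral RPE/choroid. The sums were 362 ± 60.6 (SD, n = 4) in macular retina and 378 ± 129 (SD, n = 4) in peripheral retina. All 8 RPE/choroid sums of the first set were far above all 8 retina sums. The plot of summed levels shows the same separation in every dog and the single high retina value of dog 18-9.

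**Figure D1:**
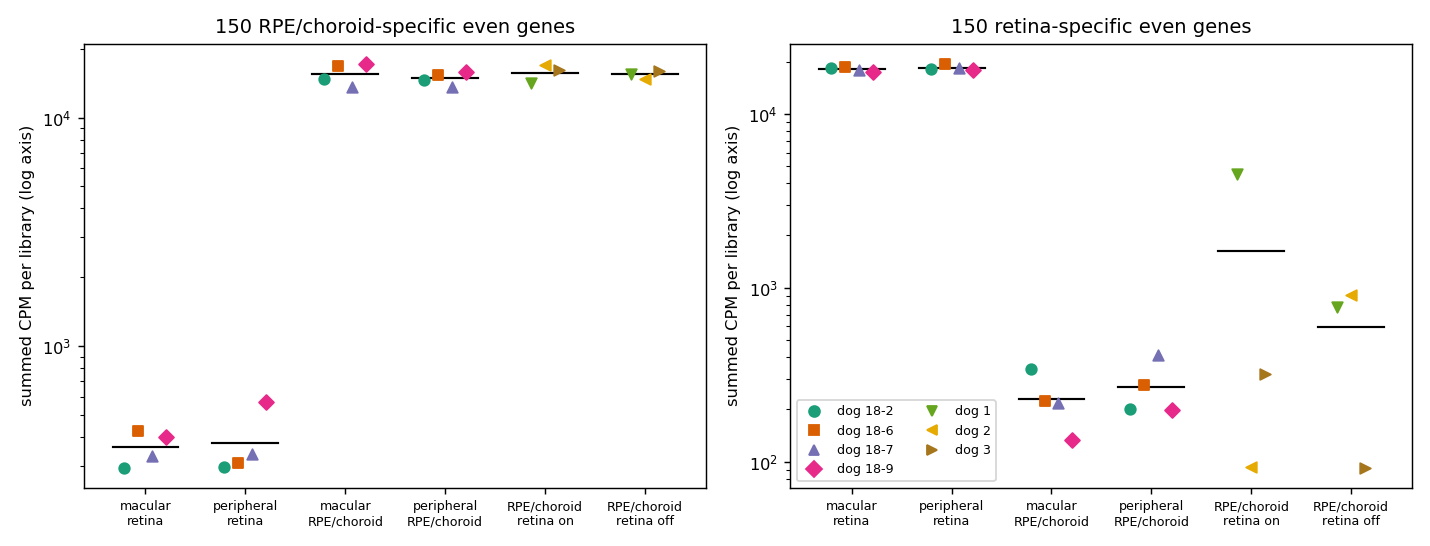
Summed CPM (log axis) of the 150 RPE/choroid-specific even genes (left) and of the 150 retina-specific even genes (right) in each of the 22 libraries; each point is 1 library, shape and colour mark the dog, and the bar is the group mean. On the left the 8 retina libraries lie between 294 and 570 and the 14 RPE/choroid libraries between 13578 and 17123, and on the right the retina-on library of dog 1 reaches 4492.

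Single members lay between 11.2 and 567 CPM in RPE/choroid (median 72.1) and between 0 and 17.1 CPM in retina (median 1.23). Their log2 tissue ratios ran from 4.32 to 7.28, with a median of 4.98. In 149 of 150 members the lowest RPE/choroid value of the first set was above the highest retina value. This contrast ranked the members and no share over all genes is given, so nothing is read from that count. Retina was low but rarely empty: 100 members were counted in all 8 retina libraries, 141 had more than 3 retina counts in all, 7 had 1 to 3, and 2 had none.

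The highest ratio belonged to ENSCAFG00000030076, at 7.28. Its level was 159, 160, 122 and 217 CPM in macular and 146, 119, 108 and 165 CPM in peripheral RPE/choroid of dogs 18-2, 18-6, 18-7 and 18-9. In retina it was 0.295, 0.618, 0.455 and 0.161 CPM in macular samples and 0, 0.214, 0 and 1.99 CPM in the periphery. The RPE/choroid values exceed all retina values in every dog, and the highest retina value is that of the peripheral retina of dog 18-9. The next member, ENSCAFG00000033501, had a ratio of 7.09, with 83.8 to 130 CPM in RPE/choroid and 0 to 1.49 CPM in retina, again highest in the peripheral retina of dog 18-9.

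The 2 members without a retina count were low in RPE/choroid too. ENSCAFG00000005170 had 7.56, 15.8, 9.96 and 17.0 CPM in macular and 11.6, 8.18, 11.8 and 7.77 CPM in peripheral RPE/choroid. ENSCAFG00000023582 had 7.56, 13.1, 12.7 and 19.3 CPM in macular and 7.13, 2.97, 14.4 and 12.2 CPM in peripheral RPE/choroid. Against a floor of 3 counts over the pooled 46906569 retina counts, which is 0.0640 CPM, the pooled RPE/choroid level was at least 177-fold higher for the first (520 counts over the 8 libraries) and at least 189-fold higher for the second (554 counts). This floor covers counting error only.

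At the lower end of the ranking the members fade into genes just left out. The last members inside were ENSCAFG00000007788, with a log2 ratio of 4.33, and ENSCAFG00000030095, with 4.32. The first genes outside, ENSCAFG00000018073 and ENSCAFG00000002134, had 4.32 and 4.31. The first of these excluded genes had 6.11 to 34.5 CPM in RPE/choroid and 0 to 0.993 CPM in retina. The edge of the list is thus a rank and not a gap.

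The peripheral retina of dog 18-9 carried more of the members than the other retina libraries. The members summed there to 570 CPM, against 297, 309 and 336 CPM in the peripheral retina of dogs 18-2, 18-6 and 18-7, and 401 CPM in the macular retina of the same dog. Of the 150 members, 54 had their highest retina value in that library, and 111 were above the mean of the other peripheral retinas, with a median log2 difference of 0.45. Over all 12853 genes the median was 0.01, with 52.8% above 0. The share of all genes highest in that library is not given, and retina levels entered the ranking, so nothing is read from the 54. Recomputing the ranking without that library kept 145 of the 150 members.

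Evenness across regions is the second criterion, and it left room for sizeable differences in single dogs. In RPE/choroid, 33 members were higher in the macula in all 4 dogs, 14 were lower in all 4, and 103 changed direction between dogs. The mean difference over dogs had a median of 0.15 on the log2 scale, with quartiles of -0.05 and 0.34. It was 2-fold or more in 2 members. At least 2-fold differences in single dogs were seen in 5, 20, 5 and 4 members in dogs 18-2, 18-6, 18-7 and 18-9, so most were in dog 18-6, whose peripheral RPE/choroid library was also the shallowest of the series at 2690847 counts. The part of depth in this was not tested. The rule used these regional differences, and no such counts over all genes are given. No regional lean of the members is therefore read from the counts.

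Dog 18-6 also had the largest median shift of the members. The median log2 macular over peripheral difference in RPE/choroid was 0.03, 0.37, -0.02 and 0.19 in dogs 18-2, 18-6, 18-7 and 18-9. Over all genes at 5 CPM or more it was 0.00, 0.14, 0.01 and 0.04. The summed level was 1.01, 1.10, 1.01 and 1.08 times as high in macular as in peripheral RPE/choroid of these dogs. In dogs 18-6 and 18-9 the members leaned to the macula, and in dogs 18-2 and 18-7 they did not.

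The members with the widest regional means show how the rule admits genes that differ in most dogs. ENSCAFG00000012964 had the highest mean log2 difference, 1.53. Its macular level was steady, with 73.8, 70.2, 78.1 and 75.8 CPM, and its peripheral level spread widely, with 13.7, 7.80, 101 and 38.1 CPM. Dog 18-7 alone had the higher value in the periphery, and this kept the gene on the list. ENSCAFG00000011945 followed with a mean of 1.10, with macular values of 14.0, 40.0, 27.3 and 44.3 CPM and peripheral values of 21.2, 7.80, 8.62 and 20.9 CPM, and dog 18-2 alone was lower in the macula.

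Toward the periphery the means were smaller. ENSCAFG00000018230 had the lowest mean, -0.81, with 20.9, 9.63, 15.6 and 14.2 CPM in macular samples and 59.5, 10.8, 26.3 and 26.0 CPM in the periphery. It was lower in the macula in every dog, by least in dog 18-6, so the criterion of a 0.2 shift in all dogs was missed by that dog alone. ENSCAFG00000000561 had a mean of -0.69, with macular values of 14.8, 14.4, 4.91 and 43.2 CPM and peripheral values of 36.5, 11.5, 15.4 and 51.0 CPM.

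In retina, where the members are near the level of a few counts, 5 were higher in the macula in all 4 dogs, 10 were lower in all 4, and 118 changed direction. The remaining 17 had a difference of exactly 0 in at least 1 dog and no change of direction. At least 2-fold differences appeared in 20, 23, 17 and 42 members by dog, the most in dog 18-9. Here too the rule used the differences and no counts over all genes are given, so nothing is read from the counts. The median log2 difference was 0.00, 0.08, 0.00 and -0.36 in dogs 18-2, 18-6, 18-7 and 18-9, and over all genes -0.05, -0.00, 0.00 and -0.02. Only the value of dog 18-9 was far from that of all genes, and it rests on the peripheral retina library with the high summed level.

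**Figure D2:**
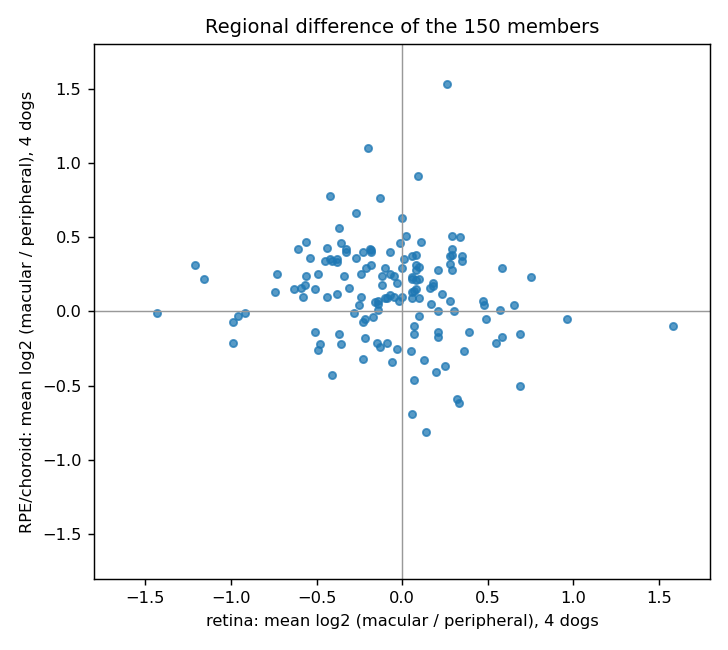
Mean log2 ratio of macular over peripheral level (CPM plus 0.5, 4 dogs) of the 150 members, with retina on the horizontal and RPE/choroid on the vertical axis; each point is 1 gene. Most points lie within 0.5 of 0 in RPE/choroid, and the widest are 1.53 and 1.10 upward and -0.81 and -0.69 downward; both axes are contrasts that chose the members.

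The retina extremes were few. ENSCAFG00000004534 had the highest mean, 1.58, with 0.147, 3.30, 0.759 and 6.11 CPM in macular and 0.178, 0.643, 0 and 0.165 CPM in peripheral retina. ENSCAFG00000032454, with a mean of 0.96, was one of the better counted members in retina, at 8.25, 20.8, 6.98 and 25.1 CPM in macular samples and 3.74, 7.72, 7.17 and 8.77 CPM in the periphery. Dogs 18-6 and 18-9 were high in the macula for both genes. ENSCAFG00000006138 had the lowest mean, -1.43, with 0.147, 3.09, 0.607 and 0.161 CPM in macular samples and 2.50, 2.79, 0.489 and 8.60 CPM in the periphery. ENSCAFG00000030105 had -1.21, with 0.147, 2.06, 0.152 and 0.322 CPM in macular samples and 2.14, 1.29, 0.814 and 3.64 CPM in the periphery. Both were highest in the peripheral retina of dog 18-9.

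The evenness rule decided much of the list. Of the 150 genes that lead the same ranking without it, 81 are members and 69 were dropped. Of the dropped genes, 56 were at least 0.2 higher in macular RPE/choroid in all 4 dogs and 8 were at least 0.2 lower. In retina, 1 was higher in the macula in all dogs and 7 were lower. Of all 12853 genes at 5 CPM or more, 9760 were kept, and the dropped ones were not split by direction. No macular lean particular to RPE/choroid-specific genes is therefore read from these counts. The members are the 81 kept genes and those next in rank.

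In the second set, which the rule did not use, the members were high in all 6 macular RPE/choroid libraries. Their summed level was 14127, 16908 and 16187 CPM with the retina on and 15542, 14802 and 15996 CPM with the retina off in dogs 1, 2 and 3, inside the first-set range of 13578 to 17123 CPM. All 6 sums were above every retina sum. In 146 of 150 members the lowest second-set value exceeded the highest first-set retina value, as in 25.6% of all genes. The retina side of this comparison chose the members, so nothing is read from that count. The retina libraries come from other dogs, and no test between the sets was made.

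Against macular RPE/choroid of the first set, the members' median log2 difference was -0.17 (SD over the 6 libraries 0.21). Single libraries ran from -0.54 to 0.02. The median over all genes was 0.02, and -0.07 after scaling by the trimmed mean of M values (TMM), under which that of the members was -0.26. Thus 61 members were above and 89 below their first-set macular mean, and the shift was of the size of the spread between libraries. The first-set macular levels entered the ranking that chose the members, whereas genes at large were not so chosen. Nothing is therefore read from the direction of the shift.

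Few members separated the sets completely. In 5 members all 6 second-set libraries were above all 4 first-set macular libraries, and 8.28% of all genes did the same. In 6 members all were below, against 4.28% of all genes. Without the retina-off library of dog 3 there were 22 above and 26 below, against 23.0% and 23.5% of all genes. Without the retina-on library of dog 1 there were 7 and 6, against 8.64% and 4.38%. The shares of members were below or near the background in each case. The first-set libraries in these counts also helped to choose the members, so the counts are a description.

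**Figure D3:**
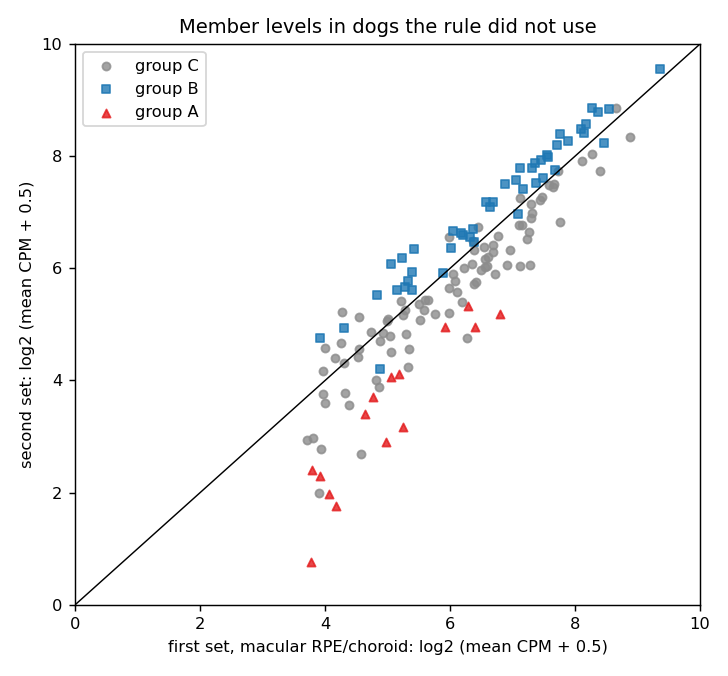
Level of each member in macular RPE/choroid of the first set (horizontal, 4 libraries) against the second set (vertical, 6 libraries), both as log2 of mean CPM plus 0.5, with the line of equality; triangles, squares and circles mark groups A, B and C, formed by co-variation over the same libraries. Group A lies below the line, with a median difference of -1.44, and group B mostly above it, with a median of 0.45.

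The members highest in the second set relative to the first were ENSCAFG00000001954 and ENSCAFG00000001067, with log2 differences of 1.01 and 0.96. The first had 21.7, 47.7, 25.8 and 36.3 CPM in first-set macular RPE/choroid. In dogs 1, 2 and 3 it had 93.3, 67.9 and 41.7 CPM with the retina on and 97.9, 65.7 and 33.3 CPM with it off. Dogs 1 and 2 were above all first-set dogs and dog 3 was inside their range, in both eyes. The second gene had 49.1, 25.6, 35.8 and 37.6 CPM in the first set, 45.9, 70.3 and 105 CPM with the retina on and 63.2, 67.7 and 83.7 CPM with it off, so here dog 3 was the highest.

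The lowest were ENSCAFG00000023582, at -3.02, and ENSCAFG00000011630, at -2.40. The first, the member without a retina count described above, had 0, 0.483 and 0 CPM with the retina on and 0, 1.95 and 4.72 CPM with it off. The second had 5.63, 22.8, 17.2 and 24.4 CPM in first-set macular RPE/choroid, 0.234, 0.483 and 2.75 CPM with the retina on and 0.434, 4.45 and 9.05 CPM with it off. In both genes the retina-off library of dog 3 was the highest of the second set, and for the first gene all second-set values were below the lowest macular value of the first set.

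Whether the members depend on leaving the retina on at sampling was tested in the 3 dogs of the second set, with the dog as a block. With edgeR's quasi-likelihood test and Benjamini-Hochberg adjustment over all genes, 0 of 147 members tested and 0 of 14076 genes (0%) passed 0.05. Another 3 members had too few counts to be tested. At an unadjusted p under 0.05 there were 13 members, 2 higher and 11 lower with the retina on, which is 8.84% of those tested, against 0.597% of all genes. DESeq2 called 0 members and 0 genes as well, with 9 members and 62 genes at an unadjusted p under 0.05. Without dog 2, 1 of 148 members, lower with the retina on, and 83 of 14312 genes passed, and 23.6% of members stood against 12.7% of all genes at an unadjusted p under 0.05. With no replicate block these shares were 2.72% (4 members) and 0.313%. Without dog 1 they were 5.44% (8 members, 0 higher and 8 lower with the retina on) and 0.484%. Without dog 3 they were 5.44% (8 members, 1 higher and 7 lower) and 0.212%. The share of members and its ratio to the background thus depend on the dogs entered and on the block.

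The direction of the shift differed between dogs. The members' median log2 difference, retina on minus retina off, was -0.18 in dog 1, 0.21 in dog 2 and -0.20 in dog 3, against -0.03, 0.08 and -0.07 over all genes. In 15 of 150 members the level was higher with the retina on in all 3 dogs, as in 6.54% of all genes, and in 25 (16.7%) it was lower in all 3, as in 6.56% of all genes. Retina signal differed between the paired eyes as well, higher with the retina on in dogs 1 and 3 and lower in dog 2, as given above. The part of that signal in the members' differences was not tested.

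The smallest p among members were those of ENSCAFG00000003376 and ENSCAFG00000014612. The first had 13.1, 8.70 and 37.8 CPM with the retina on and 30.0, 43.4 and 82.5 CPM with it off, in dogs 1, 2 and 3. It was lower with the retina on in every dog, with a log2 fold change of -1.51 ± 0.32 (SE, unadjusted p = 0.00360, adjusted p = 1.000 by edgeR), although the groups overlap. The second had 1.88, 0.725 and 4.58 CPM against 4.56, 3.34 and 13.8 CPM, with a log2 fold change of -1.61 ± 0.40 (SE, unadjusted p = 0.00741, adjusted p = 1.000 by edgeR). In both genes dog 3 was the highest of its group in either eye.

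Differences between dogs were tested in both sets. In RPE/choroid of the first set, edgeR's quasi-likelihood F test of dog, with region as covariate, called 20 of 150 members (13.3%) at a Benjamini-Hochberg adjusted p under 0.05, and 2.55% of all 14352 genes tested. At an unadjusted p under 0.05 there were 100 members (66.7%), against 35.0% of all genes. The test sets differences between these 4 dogs against the spread between the 2 libraries of 1 eye. The same 8 libraries chose the members: their mean entered the ranking, and the regional differences by dog, which make up the residual of this fit, entered the evenness rule. The members' shares in the first set are therefore a description, from which nothing is read, and single calls concern those genes alone. Members were also somewhat higher than genes at large, with a median of 72.1 CPM in RPE/choroid against 55.3 CPM over the 12853 genes, and the part of level in these counts was not tested.

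Dog 18-9 had the highest level in 12 of the 20 called members, dog 18-6 in 6, and dogs 18-2 and 18-7 in 1 each. In 9 of the 20, both libraries of dog 18-9 were above the other 6. No such counts over all genes are given, so nothing about the members is read from these. The fitted spread between the highest and lowest dog ran from 0.65 to 5.01 on the log2 scale, with a median of 1.59. Without dog 18-9 a single member and 0.134% of all genes passed, and without dog 18-2 4 members and 0.405%. Leaving out dog 18-6 gave 14 members and 0.849%, and leaving out dog 18-7 gave 28 and 3.83%. DESeq2 called 79 members, all 20 among them, and 16.5% of all genes. Without the region term a single member and 0.111% of all genes passed.

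The smallest p was that of ENSCAFG00000030630, which was nearly absent from 2 dogs. It had 57.3, 5.03, 51.8 and 1.85 CPM in macular and 55.2, 2.23, 35.8 and 1.68 CPM in peripheral RPE/choroid of dogs 18-2, 18-6, 18-7 and 18-9. Both libraries of a dog went together, and dogs 18-2 and 18-7 did not overlap with dogs 18-6 and 18-9, with a fitted range of 5.01 (adjusted p = 0.00241 by edgeR). This member still passed in each fit that left out a dog. In the second set it lay between these levels, at 16.6, 31.7 and 18.8 CPM with the retina on and 11.5, 17.5 and 11.6 CPM with it off.

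Next was ENSCAFG00000025115, which stood apart in a single dog. It had 47.0, 45.5, 49.8 and 108 CPM in macular and 39.9, 34.6, 44.1 and 92.3 CPM in peripheral RPE/choroid, with dog 18-9 above the other dogs in both regions, a fitted range of 1.25 and an adjusted p of 0.00477 (edgeR). The call was lost without dog 18-9 (adjusted p = 0.627 by edgeR) and without the region term (adjusted p = 0.0856 by edgeR). In dogs 1, 2 and 3 it had 119, 26.1 and 127 CPM with the retina on and 141, 22.8 and 127 CPM with it off. Dog 2 was below the other dogs of its set in both eyes, and fellow eyes were close to each other.

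In the second set, the same kind of test, with sampling as covariate, called 0 of 147 members and 13 of 14076 genes (0.0924%) by edgeR. At an unadjusted p under 0.05 there were 59 members (40.1%), against 11.5% of all genes. The count depends on the dogs entered. Without dog 2, 58 of 148 members and 2202 genes (15.4%) passed. Leaving out dog 1 gave 2 members and 65 genes (0.462%), and leaving out dog 3 gave 0 members and 0 genes. DESeq2 called 26 members and 439 genes (3.12%). The 2 smallest p belonged to ENSCAFG00000025115, with a fitted range of 2.43, and ENSCAFG00000041946, with 2.64, both at an adjusted p of 0.0535 by edgeR. Without dog 2 the adjusted p of the first was 0.922.

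ENSCAFG00000041946 had 13.1, 16.2 and 69.6 CPM with the retina on and 14.1, 20.9 and 104 CPM with it off, so both eyes of dog 3 were above all others. In the first set it had 35.1, 47.9, 100 and 125 CPM in macular and 35.0, 17.8, 119 and 104 CPM in peripheral RPE/choroid, where dogs 18-7 and 18-9 lay above dogs 18-2 and 18-6. Of the 20 members called in the first set, 19 could be tested in the second, and 11 of these had an unadjusted p under 0.05 there, where 40.1% of all members and 11.5% of all genes had one. Whether the called members differ from the other members in this was not tested.

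**Figure D4:**
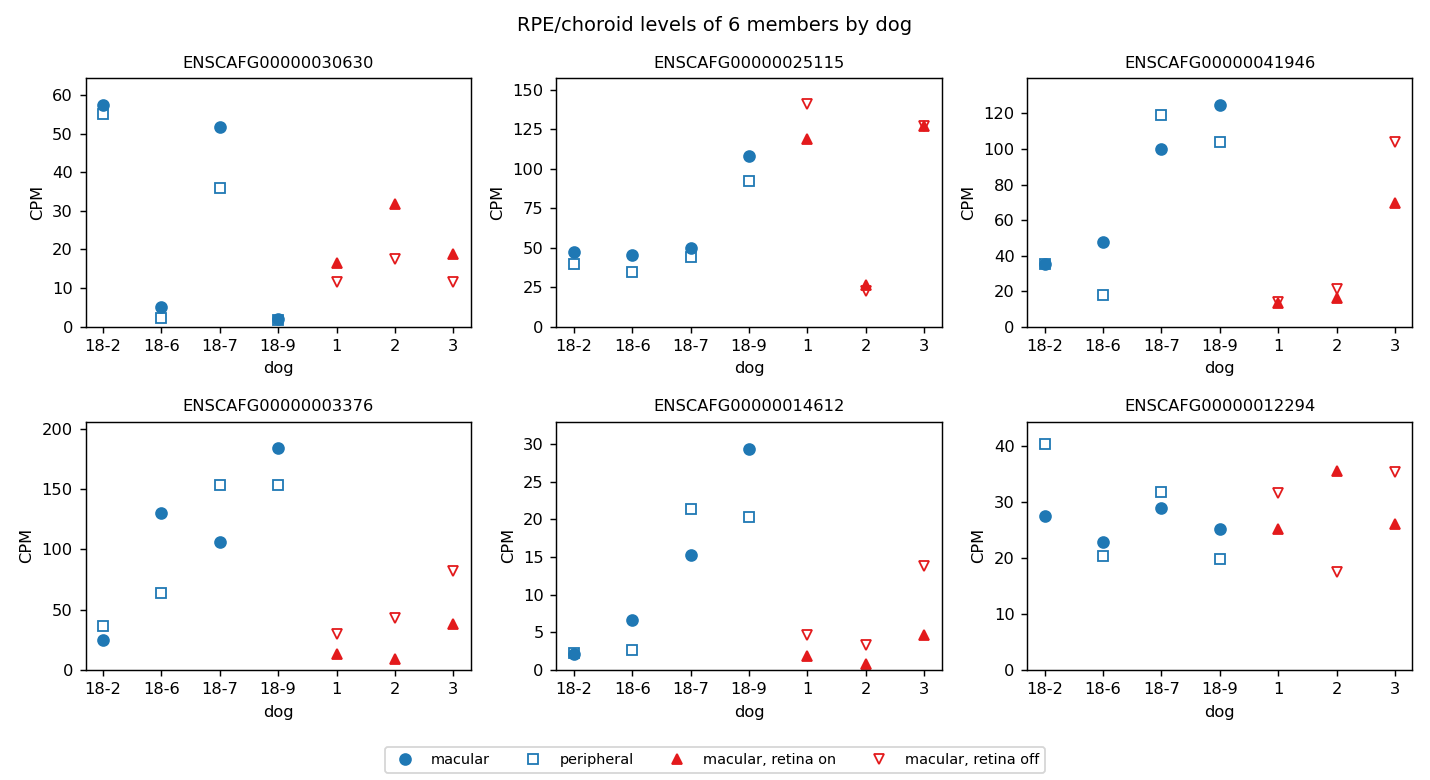
RPE/choroid level in CPM (linear axis from 0) of 6 members in each of the 7 dogs; circles and squares are macular and peripheral libraries of the first set, upward and downward triangles are macular libraries of the second set with the retina on and off. ENSCAFG00000030630 and ENSCAFG00000025115 separate dogs while samples of 1 dog lie together, and ENSCAFG00000003376 and ENSCAFG00000014612 are lower with the retina on in each dog. ENSCAFG00000012294 is the steadiest member over dogs by the SD of log2 macular level, which leaves out the peripheral libraries.

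The spread over dogs varied widely among members. Each dog was represented by its macular RPE/choroid level, averaged over both eyes in the second set. The SD of log2 level over the 7 dogs ran from 0.14 to 2.27, with a median of 0.47. The median was 0.33 over all genes and 0.30 over the 9760 genes kept by the evenness rule. Within the first set, with macular and peripheral levels of a dog averaged, the medians were 0.29, 0.19 and 0.17 in that order. Within the second they were 0.39, 0.24 and 0.22. The first-set libraries chose the members, so nothing is read from the medians that include them. By macular level over all dogs, the widest member was ENSCAFG00000046771. It had 3.06, 1.97, 36.1 and 16.8 CPM in macular and 4.08, 0, 21.5 and 8.38 CPM in peripheral RPE/choroid. In the second set it had 6.33, 0 and 0 CPM with the retina on and 13.7, 0 and 0.765 CPM with it off. It was high in dogs 18-7 and 18-9 and at or near 0 in dogs 2 and 3. ENSCAFG00000023582 was next, with an SD of 1.94.

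By macular level over all dogs, the steadiest members were ENSCAFG00000012294 and ENSCAFG00000007609, with an SD of 0.14 and 0.15. The first had 27.5, 22.8, 28.9 and 25.1 CPM in macular and 40.3, 20.4, 31.7 and 19.8 CPM in peripheral RPE/choroid, and 17.5 to 35.5 CPM in the second set. The second had 217, 239, 172 and 218 CPM in macular samples, 190, 197, 147 and 189 CPM in the periphery and 188 to 250 CPM in the second set. Its values in all 14 libraries stayed within the range of 147 to 250 CPM.

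The members did not vary as one block over the 14 RPE/choroid libraries. Ward clustering of their centred log2 levels, cut at 3 groups after the values were seen, gave a group A of 15 members, a group B of 47 and a group C of 88. The median pairwise correlation over the 14 libraries, which share dogs and sets, was 0.84, 0.56 and 0.28 in these groups. All libraries discussed next entered the clustering, so the groups are a description.

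Group A varied most, with a median SD of 1.22 over dogs, against 0.33 in group B and 0.53 in group C. Its median centred log2 level was -0.36, 1.03, 1.05 and 1.76 in macular and -0.55, 0.06, 1.45 and 1.32 in peripheral RPE/choroid of dogs 18-2, 18-6, 18-7 and 18-9. In dogs 1, 2 and 3 it was -1.68, -2.15 and -0.77 with the retina on and -0.76, -0.69 and 0.59 with it off. Group A was thus high in dogs 18-7 and 18-9 and low in dog 18-2 and most of the second set. In each of dogs 1, 2 and 3 its median was lower in the retina-on eye. There 13 of its 15 members (86.7%) were lower in all 3 dogs, against 16.7% of all members and 6.56% of all genes. These libraries helped to form the group, so nothing is read from that count. The members with the smallest p for retina on against off, ENSCAFG00000003376 and ENSCAFG00000014612, both belong to it.

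Group B ran the other way between sets, at -0.44 to 0.04 in the 8 first-set libraries and 0.19 to 0.50 in 5 of the 6 second-set libraries. The exception was the retina-off library of dog 3, at -0.11. Group C was closer to even, at -0.09 to 0.41 in the first set, and -0.54 to -0.05 in the second set except for the same library of dog 3, at 0.34. In all 3 groups that library was within the range of the first set. The first principal component of the members held 47.7% of their variance and the second 15.0%. On the first, the first-set libraries lay between 0.2 and 8.1, 5 second-set libraries between -9.9 and -4.6, and the retina-off library of dog 3 at 3.5. That library was also the deepest of the series, at 7845325 counts, and the part of depth in its place was not tested.

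**Figure D5:**
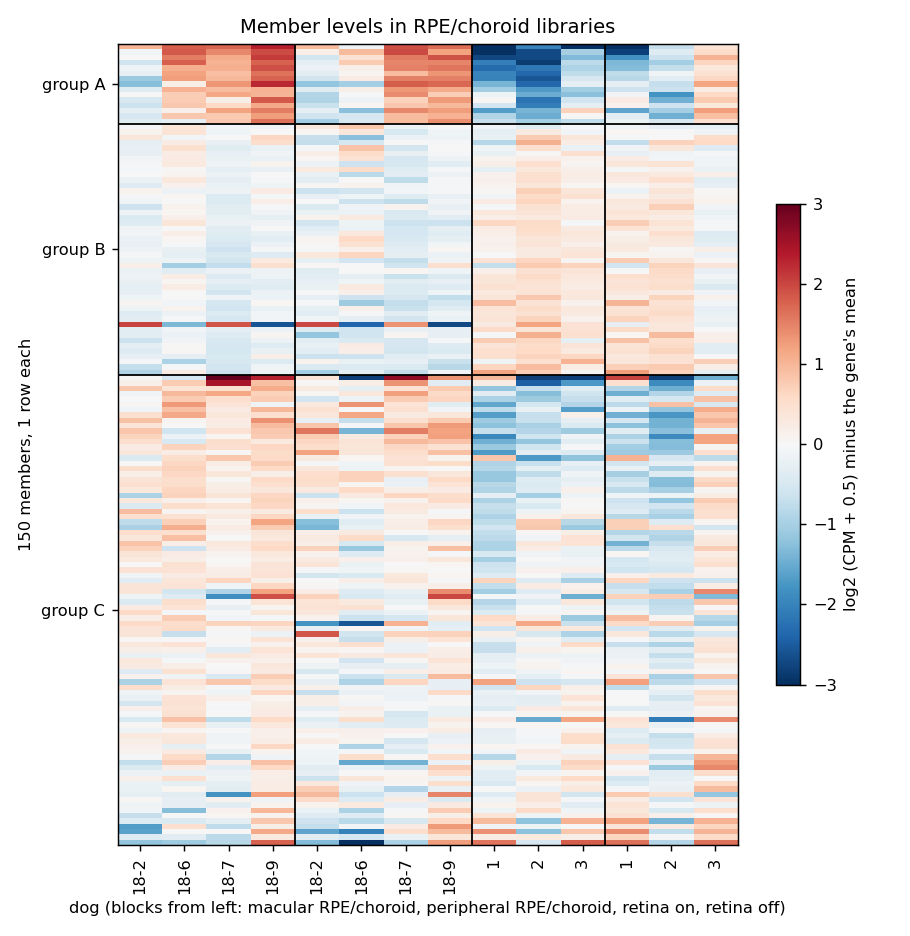
Log2 of CPM plus 0.5 minus the gene's mean over 14 RPE/choroid libraries, for each of the 150 members (rows, by group A, B or C) in each library (columns, by dog); red is above and blue below the mean, with colours saturating at 3. Group A (15 members) is red in dogs 18-7 and 18-9 and blue in most second-set libraries, and the retina-off column of dog 3, at the far right, resembles the first set.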

How the data were processed

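The deposited files held raw read counts per Ensembl gene identifier, as whole numbers, 1 file for each of 22 libraries. A directional Illumina kit was used on total RNA treated with DNase, per the labels' protocols. HISAT2 2.1.0, featureCounts 2.0.0, Trimmomatic 0.39, SAMtools and FastQC 0.11.8 appear in the submitters' processing notes. The sources used here give no genome build, annotation release, strand setting or handling of duplicates, so identifiers that overlap, or that share reads with a near-identical copy, are uncertain.

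The members and lists were chosen with earlier results of these data known. CPM used each file's total and log2 values a pseudocount of 0.5 CPM. Tests used edgeR 4.0.16 in R 4.3.3 (TMM, filterByExpr, quasi-likelihood F test, Benjamini-Hochberg over all genes, threshold 0.05), with DESeq2 1.42.0 as an alternative, on all genes. The code was checked on simulated counts. The dog entered as a block in the test of retina on against off because both eyes came from the same animal. Over 12853 genes, the deviations of fellow eyes from their group means correlated at 0.67, -0.06 and 0.48 in dogs 1, 2 and 3, and those of macular and peripheral RPE/choroid of 1 dog at 0.45 to 0.63. Replicates are different dogs, while the tests between dogs rest on 2 libraries each. Depth limits values near 0, above all in retina. No 2 libraries of a group agreed within sampling noise (chi-square per degree of freedom 3.61 to 51.7 over 30 pairs).

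Identifiers named are, at most 2 for each end, those with the highest ratio, nearest the edge of the list, widest or steadiest over regions, sets and dogs, or with the smallest p, plus the 2 without a retina count. The planned marker and pathway lists need gene symbols and were not used. Alternatives leaving out single libraries were chosen after seeing the data.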

Additional observations from a re-analysis of the deposited data

Results flagged for a closer look

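Among 60 groups of 4 libraries examined (the summed level and single named members), 4 had 1 library far from the other 3. Chance alone gives about 1 in 20 groups, a rate that does not hold for members named for extreme values, as most were here. The members' summed level in the peripheral retina of dog 18-9 was 570 CPM, with the other 3 at 297 to 336 CPM. ENSCAFG00000007609 was low in the peripheral RPE/choroid of dog 18-7, at 147 CPM, with the others at 189 to 197 CPM. ENSCAFG00000025115 was high in dog 18-9 in both regions, at 108 CPM in macular RPE/choroid (others 45.5 to 49.8 CPM) and 92.3 CPM in peripheral RPE/choroid (others 34.6 to 44.1 CPM). These last 2 values come from 1 animal.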

How the results depend on the processing

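For retina on against off, other normalization, DESeq2 and no low-count filter all called 0 members and 0 genes, as did the fit with no replicate block, and leaving out a dog gave 0 to 1 members and 0 to 83 genes. For dogs of the first set (20 members, 366 genes), DESeq2 called 79 members and 2369 genes, no low-count filter 57 and 1330, and no region term 1 and 16, while leaving out a dog gave 1 to 28 members and 19 to 543 genes. For dogs of the second set (0 members, 13 genes), DESeq2 called 26 members and 439 genes, no low-count filter 8 and 119, and no sampling term 8 and 96, while leaving out a dog gave 0 to 58 members and 0 to 2202 genes. The cause of these moves was not tested. Other pseudocounts, scaling, evenness limits and CPM minimums kept 106 to 150 of the members, leaving out a dog kept 116 to 131, and no evenness rule kept 81. The members' median shift in the second set stayed between -0.26 and -0.11 in all 8 alternatives. ENSCAFG00000025115 lost its call for dogs of the first set in 2 of 8 alternatives. In the second set, ENSCAFG00000025115 and ENSCAFG00000041946 each gained a call in 4 of 7. The log2 fold changes of ENSCAFG00000003376 and ENSCAFG00000014612 for retina on against off were negative in all 7 alternatives, whereas the median over members, -0.02, was 0.10 without dog 1 and 0.01 without dog 3.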
